A study of Schizosaccharomyces pombe with 20 samples.

Results

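The arrays labelled smd3 are the 2 of 20 splicing-sensitive microarrays whose sample records name a deletion of smd3 (SPBC19C2.14), and they are described here across every exon, intron and junction probe with a value on both. By the records, each array compared a Bioneer haploid deletion library strain, ΔSPBC19C2.14-KanR (RNA labelled with Cy3), with wild type (RNA labelled with Cy5). The records name the wild-type strain as ED666 (Bioneer), while the marker genes given below differed between the arrays. Whether both arrays had this reference was not tested. Both strains of an array were grown in YES, a rich medium, to mid-log phase, and the records describe the replicates as grown separately. The series as a whole compared 12 deletion strains with wild type in this way, 8 of them on a pair of arrays, to ask how each deletion changes splicing. By their labels the other 11 were deletions of aar2, ash2, ctr1, pht1, ppn1, pwi1, ssu72, swd1, SPAC18G6.13, SPAC20H4.06c and SPCC162.01c. The paper described global splicing defects in several of these, aar2 and pwi1 among them. A deletion library strain carries the KanR cassette that wild type lacks, and nothing in the records says whether the replicates came from more than 1 clone.

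Introns are removed from pre-mRNA by the spliceosome, which is built from small nuclear ribonucleoproteins (snRNPs), each an RNA with its proteins. The product of smd3 is the Sm protein D3, part of the ring of Sm proteins that assembles on the U1, U2, U4 and U5 snRNAs and is needed for these particles to form and persist. Fission yeast genes often hold several short introns, so 1 transcript can report on several splicing events. On these arrays an intron probe reads pre-mRNA, a junction probe across the joined exons reads mature mRNA, and an exon probe reads total mRNA. All values are log2 ratios of the deletion strain over wild type, and each event's ratio is its intron value minus its junction value on the same array, so that a value of 1 is a doubling relative to wild type.

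Values were present on both arrays for 4639 of 5098 exon probes, 2158 of 4885 intron probes and 4024 of 4694 junction probes. An intron and its junction were both measured on both arrays for 1842 of 4673 events. A further 377 events had a value on replicate 1 alone, with a median ratio of 0.49, and 876 on replicate 2 alone, with a median of 0.63, so the events described here had the higher medians. Why a value was left empty has no explanation in the records. The number of arrays limits the precision.

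The label was checked on smd3 itself. The smd3 exon probe read -0.50 on replicate 1 and -0.93 on replicate 2, against -1.01 to 0.069 on the 18 arrays of the other strains. The 3 smd3 junction probes read -0.66, -0.74 and -0.95 on replicate 1 and -1.14, -0.56 and -0.86 on replicate 2. All of these values but that of junction 1 on replicate 2 lay within the range of the other strains. The lowest of the other arrays at each junction was that of SPCC162.01c, at -1.10, -1.08 and -1.25. The exon probe of SPCC162.01c itself read 0.59 on that array. At junction 2 the next lowest was pwi1 replicate 2, at -0.45, above both arrays labelled smd3. For comparison, in 8 of the 12 strains the exon probe of the deleted gene lay below its value on every array of the other strains. Intron probe 3 of smd3 read 1.25 and 2.95, above the other strains' -0.30 to 1.01. Intron probe 1 read 0.60 and -0.059. Intron probe 2 had a value on replicate 2 alone, 0.062. The exon probe, the 3 junction probes and the measured intron probes of smd3 thus did not bear out the label. No source used here says which of these probes fall in the deleted stretch, so every value below belongs to the arrays labelled smd3.

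The arrays also differed from each other in genes that mark strain background. The exon probe of mfm2, which encodes a precursor of the M-factor pheromone, read -0.21 on replicate 1 and -4.97 on replicate 2, against -5.77 to -4.57 on the other strains' arrays. The M mating-type regulator mat1-Mc read -0.32 and -3.75, against -5.73 to -2.58 in the other strains. Its copy at the silent locus, mat3-Mc, read 0.069 and -4.47, against -7.43 to -0.40. These probes may share target sequence, since the copies are near-identical. In all 3, replicate 2 lay among the other strains and replicate 1 was near 0. The array labelled pwi1 replicate 1 was the nearest to it of the other strains in mat3-Mc, at -0.40, and it had no value for mat1-Mc or mfm2.

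Nutritional markers also differed between the arrays. No value was given for ura4, a uracil biosynthesis gene, on replicate 1, and it read -6.30 on replicate 2, against -7.07 to -0.45 in the other strains. The histidine gene his3 read -0.87 on replicate 1, below all other strains' arrays (-0.018 to 0.99), and 0.55 on replicate 2. For arg3, an arginine gene, the values were 0.038 and 1.32, against -0.036 to 1.12, and for leu1, a leucine gene, -0.044 and 0.94, against -0.30 to 1.55. The adenine gene ade6 read 0.23 and 0.93, against -0.18 to 0.88. Replicate 2 was thus the highest of all arrays for arg3 and ade6, and both arrays were within the others for leu1. Among the arrays of the other strains pwi1 replicate 1 again stood apart, with the highest value of ura4, -0.45, and the lowest of leu1, -0.30, and his3, -0.018. Of these markers and the 3 mating-type genes, none with values on both arrays passed the test below on total mRNA (adjusted p from 0.084 to 0.79). That test sets the mean of both arrays against 0, so it does not address the difference between them. The part of strain background in the results was not tested, and each result is given for both arrays.

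**Figure D1:**
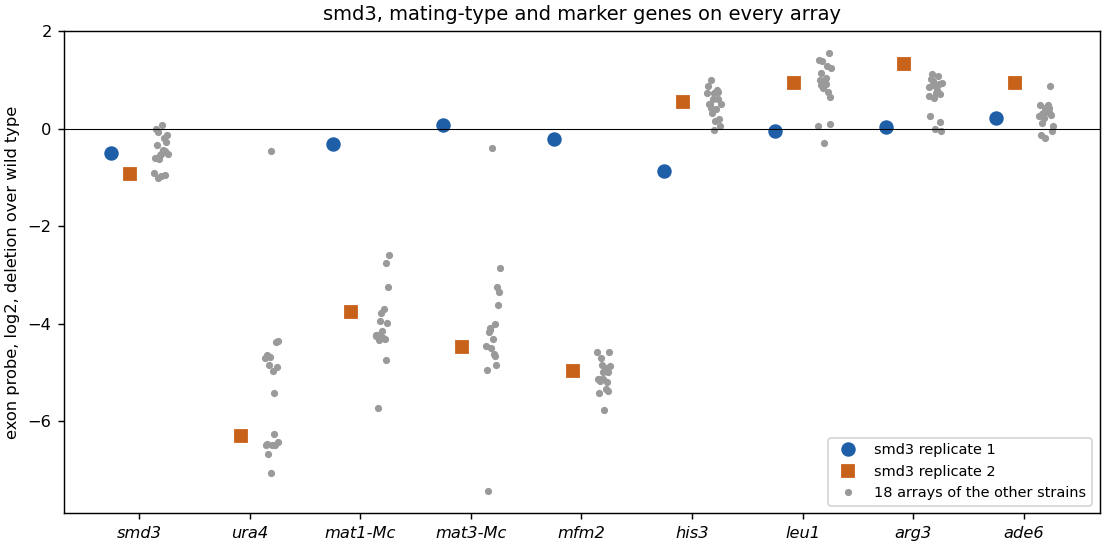
Exon-probe log2 ratios (deletion over wild type, y axis) of smd3 and 8 mating-type or nutritional marker genes (x axis). Circles are smd3 replicate 1, squares are smd3 replicate 2 and small grey points are the 18 arrays of the other strains, where a value was given. The smd3 probe lies within the other strains on both arrays. On replicate 1 mat1-Mc and mfm2 read -0.32 and -0.21, above every other array with a value, and ura4 has no value. The array labelled pwi1 replicate 1 has no value for mat1-Mc or mfm2.

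Relative to wild type, the pre-mRNA to mature mRNA ratio was broadly raised on the arrays labelled smd3. Its median over the 1842 events was 0.98 on replicate 1 and 1.08 on replicate 2. By limma, 1132 events rose (61.5%) and 4 fell (0.217%) at an adjusted p under 0.05. All 20 arrays were fitted with 1 mean per strain, tested against 0, and the spread came from the strains with a pair of arrays. Each SE below rests on that shared spread, not on the arrays labelled smd3 alone. By the records the deletion strain was labelled with Cy3 on both arrays, so an effect of the dye on these values was not tested. The ratio was above 0 on both arrays for 1528 events, above 1 for 719, above 2 for 159 and above 3 for 14. It was below -0.5 on both arrays for 5 events, and the arrays had opposite signs for 238. Across these events the arrays correlated with Pearson's r of 0.68, against 0.31 to 0.75 in the 7 other strains with a pair, a description across events that share their arrays and genes. With 1 array left out, 878 events rose without replicate 1 and 751 without replicate 2.

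A rise of the ratio can come from the intron probe, the junction probe or both, so the probes were then read separately. Pre-mRNA rose for 1046 of 2158 introns (48.5%) and fell for 11 (0.51%). Mature mRNA fell for 864 of 4024 junctions (21.5%) and rose for 91 (2.26%). Without replicate 2, pre-mRNA rose for 525 introns and fell for 3 and mature mRNA rose for 54 junctions. Without replicate 1, pre-mRNA rose for 725 introns and fell for 3. The median intron read 0.58 on replicate 1 and 0.73 on replicate 2, and the median junction read -0.22 and -0.21. Over the 1782 events that also had an exon value, 1086 rose in ratio, and of these 577 had a pre-mRNA that rose beside a mature mRNA that was not called. Another 259 of the 1782 had a pre-mRNA that rose and a mature mRNA that fell, 139 that rose in ratio had only a mature mRNA that fell, and for 103 neither probe passed the test by itself. Junctions reproduced less well than introns, with r of 0.28 for mature mRNA, below the 0.33 to 0.61 of the other pairs, and 0.68 for pre-mRNA, within their 0.44 to 0.75. When the arrays labelled smd3 were fitted alone, 349 junctions fell and 11 rose.

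**Figure D2:**
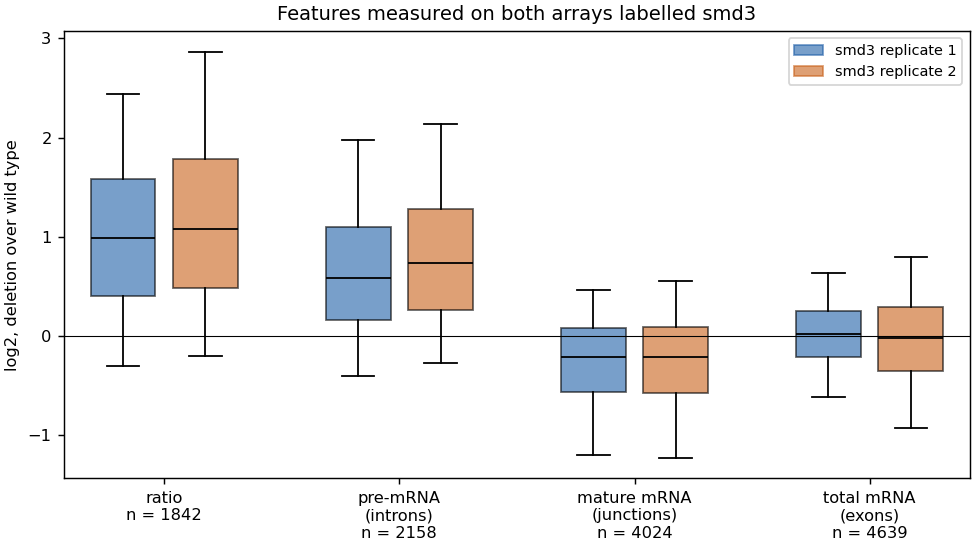
Log2 values (deletion over wild type, y axis) of the ratio, intron probes, junction probes and exon probes measured on both arrays labelled smd3, with replicate 1 left of replicate 2 in each pair. Boxes span the quartiles, lines mark medians and whiskers run from percentile 5 to percentile 95. The ratio has medians of 0.98 and 1.08, introns 0.58 and 0.73 and junctions -0.22 and -0.21, while exon probes have medians of 0.022 and -0.025.

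The largest rises of the ratio were in 2 introns of tbp1 (SPAC29E6.08), which encodes TATA-binding protein. tbp1_intron2 read 3.32 on replicate 1 and 4.18 on replicate 2, a mean of 3.75 (SE 0.32, n = 2, adjusted p = 7.7e-07). Its pre-mRNA read 2.41 and 2.68 and its mature mRNA -0.91 and -1.50. tbp1_intron3 read 3.38 and 4.10, with pre-mRNA at 2.99 and 3.59, and tbp1_intron1 read 2.11 and 2.41, so that every intron of the gene rose. Total tbp1 mRNA was not called, and it read -0.19 and -0.0025.

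Other events near the top lie in genes of varied roles. In sfc9 (SPBC8D2.07c), a subunit of the RNA polymerase III factor TFIIIC, sfc9_intron3 read 3.28 and 4.04 (mean 3.66, SE 0.34, adjusted p = 7.7e-07). In gnd1 (SPBC660.16), a phosphogluconate dehydrogenase gene of the pentose phosphate pathway, gnd1_intron4 read 4.15 and 3.14 (mean 3.65, SE 0.36). In spo20 (SPAC3H8.10), which encodes a Sec14-family phosphatidylinositol transfer protein, spo20_intron2 read 3.54 and 3.69 (mean 3.61, SE 0.35). All values of these events lay above the highest of the other strains' arrays, which reached 2.27 for sfc9_intron3, 1.93 for gnd1_intron4 and 2.27 for spo20_intron2. The remaining events of the 10 with the largest rises had means between 3.46 and 3.48. Among them were SPCC1620.06c_intron2 and atp20_intron2 (SPAC22F3.07c), in an ATP synthase subunit gene.

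The probes behind some of the large ratios differed between the arrays. For cdc3_intron2 (SPAC4A8.15c), in the profilin gene, the ratio was 2.82 on replicate 1 and 4.14 on replicate 2. Its pre-mRNA read 2.56 and 0.77 and its mature mRNA -0.26 and -3.37, so most of the ratio was in the intron on replicate 1 and in the junction on replicate 2. rpl3801_intron2 (SPBC577.02), in the gene of ribosomal protein L38, divided in the same way, with pre-mRNA at 2.61 and 1.48 and mature mRNA at 0.39 and -3.22 behind ratios of 2.22 and 4.70. In mcp7_intron1 (SPAC13A11.03), in a meiotic recombination gene, the junction carried the ratio on both arrays. Its mature mRNA read -3.07 and -2.80, against a pre-mRNA of 0.28 and 0.80, and this junction had the largest fall of mature mRNA of all (mean -2.94, SE 0.33, adjusted p = 0.00016).

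Few events went the other way. The ratio of rec8_intron4, in the meiotic cohesin gene rec8 (SPBC29A10.14), read -0.58 and -1.86 (mean -1.22, SE 0.36, adjusted p = 0.0091), and it was not called without replicate 2. Its pre-mRNA read -1.01 and -0.20 and its mature mRNA -0.43 and 1.66. The ratio of rec8_intron4 ran from -2.21 to 0.58 on the 7 other strains' arrays with a value, with a median of -0.68. By contrast rec8 introns 2 and 3 rose, with means of 1.07 and 0.85. zas1_intron2 (SPBC1198.04c), in the gene of a zinc finger transcription factor, read -1.25 and -0.89 (mean -1.07, SE 0.33). The others that fell were nSPAC23D3.17_intron1 at a mean of -0.95 and get4_intron4 (SPCC1672.12c) at -0.82, and leaving out either array ended both calls. Without replicate 1, zas1_intron2 was not called. In addition tom20_intron1 (SPAC6F12.07), in the gene of a mitochondrial import receptor, was called as a rise although it read -0.21 on replicate 1 and 4.52 on replicate 2. It is named after its values were seen, as the only event called with opposite signs, and it read 0.88 to 5.84 on the other strains' arrays.

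**Figure D3:**
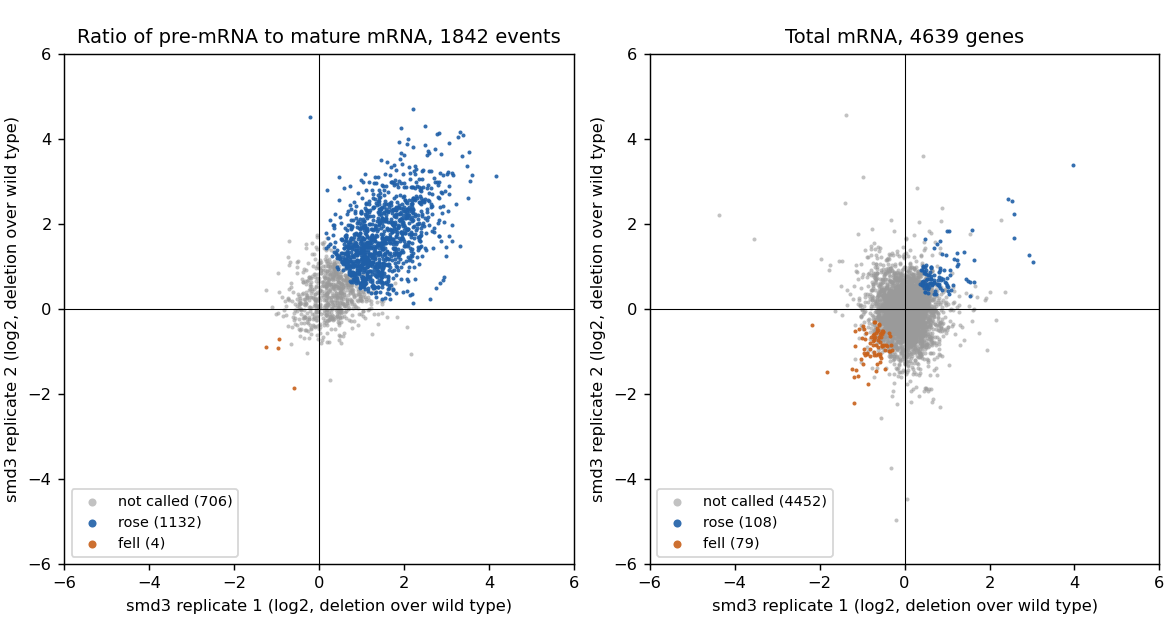
Each point is a splicing event (left, ratio of pre-mRNA to mature mRNA) or a gene (right, total mRNA), with its log2 value on smd3 replicate 1 on the x axis and on replicate 2 on the y axis. Blue points rose and orange points fell at an adjusted p under 0.05. In the ratio 1528 of 1842 events lie above 0 on both arrays, while in total mRNA the cloud is centred on 0 with r of 0.079 between the arrays.

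Among intron probes, the 2 largest rises of pre-mRNA were in ribosomal protein genes. rpl2501_intron1 (SPBC106.18) read 3.90 and 3.38 (mean 3.64, SE 0.30, adjusted p = 5.2e-06), and rpl3001_intron1 (SPAC9G1.03c) read 3.77 and 3.16 (mean 3.47, SE 0.43). The arrays gave close values for both. The falls of pre-mRNA were smaller, the largest being grx2_intron1 (SPAC15E1.09), in a glutaredoxin gene, at -1.26 and -0.66, and dtd1_intron1 (SPAC8C9.05) at -0.92 and -0.74. Those of aly1_intron1, crs1_intron3 and pth1_intron1 had means of -0.81, -0.75 and -0.75. None of these 5 falls was called with every array left out in turn.

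Among junction probes, mature mRNA fell at several junctions of some genes. Junctions 1, 2 and 5 of ckn1 (SPBC577.09) read -2.10, -2.25 and -2.36 on replicate 1 and -2.10, -2.41 and -2.33 on replicate 2, and the junction of mug161_intron3 (SPAC1F3.09) read -2.55 and -2.10. The call at ckn1 junction 2 (SE 0.58, adjusted p = 0.014) was lost without either array, and junction 4, at -2.53 and -1.49, was not called. The largest rises of mature mRNA were at junctions 1 and 2 of SPBPB2B2.18, with means of 2.32 and 1.36. Junction 4 of wtf20 (SPCC1906.04), of the wtf family of spore killer genes whose members are near-identical in part, rose by 1.34, and junction 1 of SPBP8B7.26 rose by 1.16. Junction 4 of mpn1 (SPAC23C11.10), which encodes the nuclease that trims the end of U6 snRNA, read 0.83 and 1.39 (mean 1.11, SE 0.15, adjusted p = 0.00045). The calls at wtf20 and SPBP8B7.26 were each lost without 1 array, replicate 2 for wtf20 and replicate 1 for SPBP8B7.26. The junction of tsn1_intron4 (SPAC30.03c), named after its values were seen, was the only junction called with opposite signs, at 1.71 and -0.036.

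Introns of the same gene differed in their ratio. Over the 115 genes with at least 3 events measured on both arrays, the median range of the mean ratio within a gene was 1.09. All events rose in 37 of these genes, none in 10 and some in 68. The 3 largest ranges were in arp3, rpp40 and cds1. In arp3 (SPAC630.03), a subunit of the Arp2/3 complex that nucleates actin filaments, arp3_intron3 rose, at 2.83 and 2.98 (SE 0.36, adjusted p = 3.7e-06). arp3_intron1 read -0.15 and 0.27 and arp3_intron4 read 0.22 and 1.01, and neither passed the test.

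In rpp40 (SPAC6C3.09), an RNase P and RNase MRP subunit gene, rpp40_intron4 read 2.80 and 2.91 and rpp40_intron3 read 2.18 and 1.42, both rising, while rpp40_intron1 read 0.16 and 0.20 and was not called. In cds1 (SPCC18B5.11c), the gene of a replication checkpoint kinase, cds1_intron4 rose, at 2.07 and 2.36 (mean 2.21, SE 0.29, adjusted p = 1.8e-05). The neighbouring cds1_intron3 also rose, at 0.80 and 0.71, a call lost without either array. cds1_intron2 read -0.32 and -0.50 and was not called. Introns 1 and 7 of cds1 had means of 0.63 and 0.25 and were not called. The order of the measured introns by their ratio was the same on both arrays in each of these 3 genes.

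The genes with the most events measured were clr6, trt1, ppk26 and trk2. In clr6 (SPBC36.05c), a histone deacetylase gene with 13 introns, 2 of 7 events rose. clr6_intron12 read 1.05 and 1.92, a call lost without replicate 2, and clr6_intron4 read 1.23 and 0.88, a call lost without replicate 1. The other 5 had means between -0.34 and 0.48. In trt1 (SPBC29A3.14c), the gene of the telomerase reverse transcriptase, 5 of 6 events rose, the largest being trt1_intron3 at 2.40 and 1.73 and trt1_intron4 at 2.37 and 1.72. The exception, trt1_intron12, read 0.92 and -0.37. In ppk26 (SPBC336.14c), a protein kinase gene, 4 of 6 rose, with ppk26_intron7 at 2.55 and 2.29 and ppk26_intron5 at 2.31 and 2.01. The remaining ppk26 introns, 4 and 9, had means of 0.65 and 0.77. In trk2 (SPAC1639.02c), a potassium transporter gene, 1 of 6 rose, trk2_intron7 at 1.64 and 0.56, and the other 5 had means between -0.30 and 0.59.

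**Figure D4:**
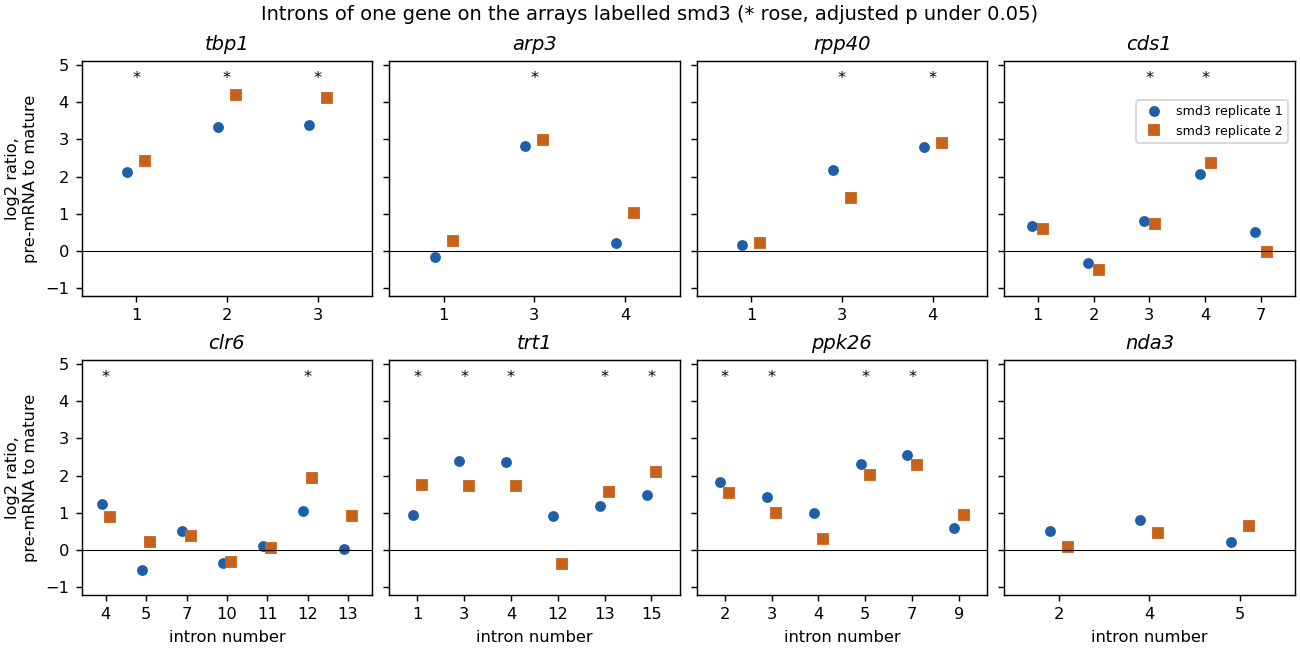
Log2 ratio of pre-mRNA to mature mRNA (y axis) of each measured intron, by its number in the gene (x axis), in 8 genes. Circles are smd3 replicate 1 and squares are replicate 2, and asterisks mark events that rose. All 3 introns of tbp1 rose, none of the 3 measured introns of nda3 did, and arp3 rose at intron 3 alone.

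The share of events that rose was also read by the number of introns of the gene and by the place of the intron in it. It was 65.6% of 430 events in genes with 1 intron, 65.6% of 509 with 2 and 63.5% of 395 with 3. It was 54.5% of 220 events in genes with 4 introns, 53.1% of 113 with 5 and 48.6% of 175 with 6 or more. In genes with 1 intron the median ratio was 1.04 on replicate 1 and 1.23 on replicate 2, and in genes with 6 or more it was 0.73 and 0.75. By place, the share was 61.3% of 437 events at the first intron of genes with several, 58.3% of 468 at internal introns and 60.9% of 507 at the last. The share of designed events with a value on both arrays also differed, at 42.7% in genes with 1 intron and 32.4% in genes with 6 or more. These are descriptions, with no test of the difference between classes.

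Introns that are often used to read out splicing differed among themselves. fet5_intron1 (SPAC4D7.12c), in a GTPase gene and 1 of the introns that the study's screen of deletion strains had read out, rose, at 1.61 and 3.46 (mean 2.53, SE 0.41, adjusted p = 6.8e-05). The fet5 junction read -0.13 and -0.12, so the difference between the arrays lay in the intron probe, at 1.48 and 3.33. Also read out in that screen, pwi1_intron2 (SPCC825.05c), read 0.56 and 0.68 (adjusted p = 0.12), and pwi1_intron3 read 0.34 and 0.93. In the screen, which counted unspliced and spliced sequencing reads, the paper reported a significant increase for both fet5_intron1 and pwi1_intron2 in the smd3 deletion. In cdc2 (SPBC11B10.09), the cyclin-dependent kinase gene, cdc2_intron3 rose, at 0.71 and 0.83, a call lost without either array, and cdc2_intron1 read 0.18 and 0.37. Introns 2, 4 and 5 of nda3 (SPBC26H8.07c), the beta-tubulin gene, had means of 0.29, 0.62 and 0.42 and were not called. Of 21 reporter events in all, 12 rose (57.1%, beside 61.5% of all events) and 1 fell, rec8_intron4.

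Ribosomal protein genes, among the most highly expressed genes of growing yeast cells, had 35 events that rose of 44 (79.5%, beside 61.5% of all events) and none that fell. Their median ratio was 1.47 on replicate 1 and 1.84 on replicate 2, beside 0.98 and 1.08 over all events, and the list was above 0 on both arrays in 37 events. The largest after rpl3801_intron2 were rps502_intron1 (SPAC328.10c) at 2.72 and 3.76, rpl3601_intron1 (SPCC970.05) at 1.87 and 3.94 and rps1802_intron1 (SPCC1259.01c) at 2.71 and 3.08. On the 18 arrays of the other strains, the median of the same list ran from 0.087 to 1.21, lower than on both arrays labelled smd3. Many ribosomal proteins have near-identical paralogs, and their probes may not tell the copies apart.

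The arrays built these ratios from different probes. Pre-mRNA of ribosomal protein genes had a median of 1.54 on replicate 1 and 0.87 on replicate 2, and 45 of 64 introns rose (70.3%, beside 48.5% of all introns). Mature mRNA had medians of 0.16 and -1.09, and 2 of 57 junctions fell (3.51%, beside 21.5% of all junctions). Total mRNA had medians of 0.10 and -0.82, with 11 of 58 genes below 0 on replicate 1 and 54 on replicate 2. In the other strains the median of total ribosomal protein mRNA ran from -0.76 to 0.062, so replicate 1 lay just above that range and replicate 2 just below it. Only 58 of the 136 genes in the list had a total mRNA value on both arrays, and the rest are not described by these medians.

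Within total mRNA of this list, 2 genes passed the test. rpl1603 (SPBC2G2.05) fell, at -1.19 and -2.22 (mean -1.70, SE 0.24, adjusted p = 0.0049), and rps2202 (SPAC5D6.01) fell, at -0.85 and -1.76 (mean -1.31, SE 0.23). Neither was called without replicate 2. In the other strains rpl1603 also read low, from -1.66 to -0.19.

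**Figure D5:**
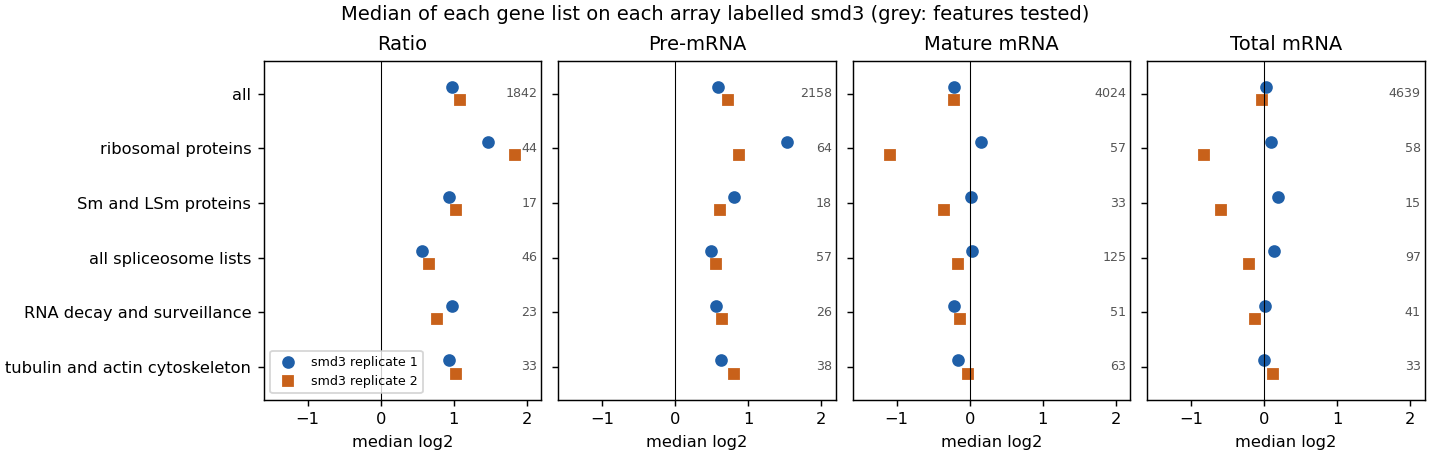
Median log2 value (x axes) of 5 gene lists and of all features tested, for the ratio, pre-mRNA, mature mRNA and total mRNA. Circles are smd3 replicate 1 and squares are replicate 2, and grey numbers count the features of each list measured on both arrays. The median ratio of ribosomal proteins is 1.47 and 1.84, above the 0.98 and 1.08 of all events, while their total mRNA has medians of 0.10 and -0.82.

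The genes of the spliceosome itself were read next. Over all spliceosome lists, 17 of 46 events rose (37%, beside 61.5% of all events) and none fell, with medians of 0.57 and 0.66 beside 0.98 and 1.08 over all events. None of the 97 genes was called in total mRNA, where only 2.33% of all genes rose and 1.7% fell. Their medians were 0.13 on replicate 1 and -0.20 on replicate 2. Of the events of Sm and LSm proteins 9 of 17 rose, or 52.9%, beside 61.5% of all events, and without the 2 events of smd3 it was 7 of 15. smd3_intron3 read 2.21 and 3.80 (mean 3.01, SE 0.33, adjusted p = 2.6e-06), and smd3_intron1 read 1.25 and 1.08 and rose too, a call lost without replicate 1. Events of smd1, another member of the Sm ring, and of lsm4, lsm6 and lsm7, subunits of LSm rings, also rose. Their values were 1.25 and 1.57 for smd1_intron2, 1.13 and 1.55 for lsm4_intron2, 2.10 and 1.23 for lsm6_intron2 and 0.88 and 2.02 for lsm7_intron1. Without replicate 2, lsm4_intron2 and lsm7_intron1 were not called.

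Among the other Sm and LSm events, sme1_intron1, in a further Sm gene, read 0.94 and 0.35, lsm8_intron2 read 0.49 and -0.08, and neither was called. Of lsm1, a subunit of the cytoplasmic ring that takes part in mRNA decay, lsm1_intron3 rose, at 1.07 and 1.10, and introns 1 and 2 had means of 0.16 and 0.57. Likewise lsm2_intron2 rose, at 1.40 and 1.03, and introns 1 and 3 of lsm2 had means of 0.46 and 0.44. The lsm1 call was lost without replicate 2 and the lsm2 call without replicate 1. lsm6_intron1 rose, with 0.26 and 2.09, a call lost without replicate 2. Both lsm3 introns measured, 3 and 4, were just short of the threshold, with means of 0.70 and 0.68 (adjusted p = 0.051 and 0.059).

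Total mRNA of the Sm ring genes was not called for any member. The mean was -0.38 for smb1, 0.05 for smd1, -0.21 for smd2, 0.20 for sme1, -0.52 for smf1 and -0.35 for smg1, beside -0.72 for smd3. The arrays had opposite signs for smd1, at 0.29 and -0.19, for smd2, at 0.42 and -0.85, and for smg1, at 0.33 and -1.04.

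In the other splicing lists, the largest events were in the U2 snRNP gene msl1 (SPBC8D2.09c), where msl1_intron1 rose, at 2.14 and 3.07, in the SR protein gene srp1 (SPBC11C11.08), where srp1_intron2 rose, at 1.41 and 2.48, and in cwf2 (SPAC3A12.11c), of the Prp19-associated complex, where cwf2_intron2 rose, at 1.78 and 1.99. By list, 3 of 9 events rose for U1 and U2 snRNPs and splice site recognition, 1 of 4 for the tri-snRNP, 1 of 9 for the Prp19 complex and helicases, 3 of 9 for SR proteins and their kinases and 2 of 4 for snRNP assembly. Each share was below the 61.5% of all events, over few events. The tri-snRNP event was prp38_intron1 (SPBC19C2.08), at 1.58 and 2.12. In the assembly list, the cap hypermethylase gene tgs1 (SPAC2G11.15c) fell in total mRNA, at -0.73 and -0.75, a call lost without either array.

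The snRNAs that carry the Sm ring have non-coding RNA probes, which are outside the comparisons above and were looked up after other values were seen. Neither U2 nor U5 snRNA had a value on these arrays. U1 snRNA (snu1) read -0.53 on replicate 1 and -4.78 on replicate 2, against -4.03 to 0.48 on the arrays of the other strains. U4 snRNA (snu4) read 0.43 and -2.67, against -2.50 to 0.034. For U3 (snu3), a small nucleolar RNA without this ring, there was a value on replicate 2 alone, -1.21, against -1.94 to 0.28. U1 and U4 were thus below every other array on replicate 2, and on replicate 1 U4 was above every other array. The ncRNA probes as a whole had medians of 0.034 on replicate 1 and -0.64 on replicate 2. The 116 probes for exon-skipping junctions with both values had medians of -0.58 and -0.29, and 13 were above 0 on both arrays.

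Lists outside splicing were set beside the same 61.5% of all events. In RNA decay and surveillance 16 of 23 events rose (69.6%), the largest being those of ski7_intron3 (SPAP8A3.05), in a gene of exosome recruitment, at 1.50 and 2.09 and of rmn1_intron1 at 1.49 and 1.43. In the tubulin and actin cytoskeleton 21 of 33 rose (63.6%), and besides cdc3_intron2 and arp3_intron3 these included all 4 measured introns of cdc4 (SPAP8A3.08), a myosin light chain gene, led by introns 1 and 2 at means of 2.45 and 2.50. Of 7 events in meiotic genes whose transcripts Mmi1 removes in vegetative cells, 5 rose (71.4%) and 1 fell, and 4 of their 11 junctions fell in mature mRNA (36.4%, beside 21.5% of all junctions). Mmi1's own introns rose, mmi1_intron1 at 1.38 and 1.31 and mmi1_intron2 at 0.80 and 2.10, a call lost without replicate 2. Of iron and phosphate genes both events measured rose, pho8_intron1 (SPBC14F5.13c), in an alkaline phosphatase gene, at 2.77 and 2.98 and tgp1_intron1 (SPBC1271.09), in a glycerophosphodiester transporter gene, at 1.18 and 2.29. Without replicate 2, tgp1_intron1 was not called.

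Total mRNA gave few calls and little agreement between the arrays. By limma 108 of 4639 genes rose (2.33%) and 79 fell (1.7%), and 921 were at an unadjusted p under 0.05. The arrays correlated with r of 0.079 across genes and had the same sign for 52.3% of them, whereas the other 7 pairs correlated with r from 0.41 to 0.70. They differed by more than 1 on the log2 scale for 520 genes and by more than 2 for 60. When the smd3 arrays were fitted alone no gene passed, with 298 at an unadjusted p under 0.05. Without replicate 1, 100 genes rose and 115 fell, of which 35 and 34 were among those called with both arrays, and without replicate 2 it was 43 and 20. Of 3967 genes measured on all 20 arrays, 1236 lay outside the range of the other strains' 18 arrays on replicate 1 (31.2%) and 655 on replicate 2 (16.5%). Of the 1086 events that rose in ratio beside a measured total mRNA, 1038 had a total mRNA that was not called, 17 one that rose and 31 one that fell. Since only 2.33% of all genes rose and 1.7% fell, this count is not read as a trait of these events.

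Of the 8 genes that rose most in total mRNA, the hexose transporter gene ght5 (SPCC1235.14) read 2.58 and 2.24 (mean 2.41, SE 0.22, adjusted p = 0.00078), and gal10 (SPBPB2B2.12c), which encodes the epimerase of galactose use, read 1.59 and 1.86, a call lost without replicate 2. The largest mean was that of cmt2 (SPBPB21E7.04c), at 3.96 and 3.39 (mean 3.67, SE 0.58, adjusted p = 0.014), a call lost without either array. fub2 (SPBP4G3.03) read 2.52 and 2.54 and the pseudogene SPCC18B5.02c read 2.44 and 2.60. The arrays agreed less for osr1 (SPCC663.06c) and SPCC663.08c, at 3.03 and 1.12 and at 2.92 and 1.26, neither of which was called without replicate 1. Several of these were also high in other strains, whose medians were 1.44 for cmt2, 1.50 for SPCC18B5.02c and 1.26 for ght5.

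Among the genes that fell in total mRNA, mcp7 read -1.84 and -1.49 (mean -1.66, SE 0.22, adjusted p = 0.0037), alongside the fall of its junction. set7 (SPCC297.04c), a SET-domain lysine methyltransferase gene, read -1.18 and -1.61, tts1 (SPBC1539.04), of the endoplasmic reticulum membrane, read -1.09 and -1.59 and adg1 (SPAPJ760.03c) read -1.24 and -1.40. SPAC644.09 read -1.14 and -1.43. In the other strains set7 also read low, from -1.90 to -0.17, while tts1, adg1 and SPAC644.09 were lower on both arrays than on any other. The calls of set7, tts1, adg1 and SPAC644.09 were lost without replicate 2, and that of SPAC186.04c, at -2.17 and -0.37, without replicate 1. Of the remaining lists, only 10 of 26 core stress genes had values on both arrays, and 2 of these 10 rose (20%, beside 2.33% of all genes). They were the calcium transporter gene cta3 (SPBC839.06) at 1.23 and 1.14 and caf5 (SPBC609.04) at 1.45 and 0.71. The call of cta3 was lost without either array and that of caf5 without replicate 1. In the mating and nitrogen response 1 of 13 genes rose (7.69%, beside 2.33% of all genes) and 1 fell (7.69%, beside 1.7%). The gene that rose was fus1 (SPAC20G4.02c), a formin of cell fusion, and the gene that fell was rep1 (SPBC2D10.06). fus1 read 1.02 and 0.43, within the -0.17 to 1.12 of the other strains, whose median was 0.63. rep1 read -0.74 and -0.61, against -0.59 to 0.47. The calls were lost without replicate 1 for fus1 and without either array for rep1. Of the M-cell list 1 of 6 genes measured fell (16.7%, beside 1.7% of all genes), mam4 (SPAC10F6.12c), a methyltransferase of M-factor maturation. It read -0.67 and -1.08, a call lost without replicate 2. In the other strains mam4 ran from -1.22 to 0.071, with a median of -0.59. The 7 histone genes measured had medians of -0.20 and -0.86, and none was called.

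The largest differences between the arrays in total mRNA were chosen after their values were seen. gdt1 (SPAC186.05c) read -4.37 on replicate 1 and 2.22 on replicate 2, against -0.31 to 4.40 in the other strains, and aes1 (SPBPB21E7.07) read -1.38 and 4.56, against 0.57 to 6.44. SPAC186.06 read -3.55 and 1.65, against a highest of 4.996 and a lowest of 0.28 in the other strains. Of the metabolic genes, gdh2 (SPCC132.04c), a glutamate dehydrogenase, read 0.44 and 3.60 and cit1 (SPAC6C3.04), a citrate synthase, read -1.55 and 1.12. In each of these genes but gdh2 replicate 1 lay below every array of the other strains, and replicate 2 lay within their range. For gdh2 both arrays lay within 0.27 to 3.60. The siderophore transporter gene str1 (SPBC4F6.09) ran the other way, at 1.95 and -0.97, against -1.94 to 0.011.

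Whether the rises of the ratio exceeded what the other strains showed was tested by a contrast with the equally weighted mean of the other 11 strains, over the 396 events with a value in every strain. By limma, 183 events were higher on the arrays labelled smd3 than in that mean (46.2%) and 4 were lower (1.01%). The count was 113 without replicate 1 and 91 without replicate 2. Over the 276 events measured on all 20 arrays, the median ratio was 1.29 on replicate 1 and 1.38 on replicate 2, and the other strains' arrays ran from 0.12 to 1.35. Over these events replicate 2 had the highest median of all arrays, and replicate 1 was below the highest of the other strains. Over all events of each array by itself, the medians were 0.89 and 0.92, and those of the other strains ran from 0.11 to 0.97, so neither was the highest.

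The largest of these differences were in genes of several processes. igo1_intron2 (SPAC10F6.16), in the gene of endosulfine, a phosphatase inhibitor of cell cycle entry, read 3.49 and 3.38, against a mean of 0.37 over the other strains, a difference of 3.06 (SE 0.43, adjusted p = 0.00016). tbp1_intron3 averaged 3.74, against 0.69, a difference of 3.05 (SE 0.40, adjusted p = 0.00012). apt1_intron1 (SPAC23A1.03), in an adenine phosphoribosyltransferase gene, read 1.94 and 4.27 and differed by 2.85, a call lost without replicate 2. tif222_intron2 (SPAC343.14c), in a gene of the translation initiation factor eIF2B, read 3.03 and 3.23 and differed by 2.83. SPCC320.06_intron1 read 2.66 and 2.42, against a mean of -0.15, and differed by 2.70. Lower than in the other strains were zas1_intron2, by -1.33, nSPAC25H1.10c_intron2, by -1.03, ppk38_intron2, by -0.74, and tom20_intron1, whose arrays had opposite signs. Leaving out replicate 1 ended all of these 4 calls.

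Total mRNA was compared with the other strains in the same way. By this contrast over 4131 genes, 6 were higher (0.145%) and 18 lower (0.436%), while 747 were at an unadjusted p under 0.05. SPCC737.04 read 2.57 and 1.68, against a mean of 0.26 over the other strains, a difference of 1.87 (SE 0.24, adjusted p = 0.0094). SPAC4H3.08 differed by 1.50 and fbp1 (SPBC1198.14c), the fructose bisphosphatase gene of gluconeogenesis, by 1.25, at 0.81 and 0.86 against a mean of -0.41. sqt1 (SPAC25H1.08c), whose homologue in Saccharomyces cerevisiae escorts a ribosomal protein, differed by 1.17 and per1 (SPAP7G5.06) by 0.94. Of these 5 only sqt1 was also called without replicate 1. Lower than in the other strains were SPAC26H5.09c, by -1.82, SPCC330.03c, by -1.58, cbm1, by -1.31, mcp7, by -1.24, and SPAC644.09, by -1.17. None of these 5 was called without replicate 1, where 1 gene was higher and 1 lower in all, and without replicate 2 it was 146 and 174.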

How the data were processed

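Two-colour microarrays compared RNA of deletion strains (Cy3) with RNA of wild type (Cy5). The authors deposited a log2 ratio for each probe on each array, with the deletion strain on top, in 2 tables identical in all 304160 cells. How the arrays were scanned, background-corrected and normalized, and when a value was left empty: not given in the sources used here. The centring is unknown, and column medians were 0.0055 and 0.0094 on the arrays labelled smd3. Deleted genes were low on their own arrays in 8 of 12 strains, which checks the direction. Control spots (536) were left out, empty values stayed missing, and no scaling was applied. Of 5152 gene identifiers, 4775 were matched to RefSeq ASM294v3 and 3995 had a symbol.

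Events paired an intron with its junction probe. limma 3.58.1 in R 4.3.3 fitted 1 mean per strain over 20 arrays, and p was adjusted by Benjamini-Hochberg over features of a type measured on both arrays labelled smd3, with an adjusted p under 0.05 called. A contrast with the other strains used the same fit. Scripts were tested on simulated data. The members and gene lists were chosen with earlier results of these data known. Named are the features with the largest changes past the test and 1 sign on both arrays (10 rises and 5 falls of the ratio, 5 each way for introns, junctions and both contrasts, 8 for total mRNA), the genes with the most or most varied introns, reporter introns, the 4 largest called members of each list, marker genes and Sm partners. Alternatives were other fits, centring, filters, each array left out and the exon probe in place of the junction.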

Additional observations from a re-analysis of the deposited data

Results flagged for a closer look

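These results differed between the arrays labelled smd3 and the mean of the other 11 strains by the test of that difference (limma contrast, adjusted p under 0.05). For the ratio 183 events were higher and 4 lower, and for total mRNA 6 genes were higher and 18 lower. The named events differed by 3.06 for igo1_intron2, 3.05 for tbp1_intron3, 2.85 for apt1_intron1, 2.83 for tif222_intron2, 2.70 for SPCC320.06_intron1, -1.33 for zas1_intron2, -1.03 for nSPAC25H1.10c_intron2 and -0.74 for ppk38_intron2 on the log2 scale. The named genes differed in total mRNA by 1.87 for SPCC737.04, 1.50 for SPAC4H3.08, 1.25 for fbp1, 1.17 for sqt1, 0.94 for per1, -1.82 for SPAC26H5.09c, -1.58 for SPCC330.03c, -1.31 for cbm1, -1.24 for mcp7 and -1.17 for SPAC644.09.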

How the results depend on the processing

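The deposited tables differ in no cell, and centring each array on its exon probes moved no count of calls by over 1.5 times. On the 276 events with values on all 20 arrays, 192 rose and 1 fell, with a median ratio of 1.34, against 1.04 over all 1842. On the 413 such introns 213 rose and 6 fell, and 2 events were lower than in the other strains (fewer features were tested). With the exon probe in place of the junction, the median was 0.70, with 875 events that rose and 6 that fell of 1987. With a trended and robust fit 17 introns fell, and 34 genes were higher and 36 lower than in the other strains in total mRNA. The fit of the arrays labelled smd3 alone gave 11 junctions that rose and 349 that fell, and 0 and 0 genes for total mRNA by limma, with 298 at an unadjusted p under 0.05. The cause was not tested in either case.

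With each array left out in turn, the ratio rose for 751 to 878 events and fell for 2 to 2, pre-mRNA rose for 525 to 725 and fell for 3 to 3, mature mRNA rose for 54 to 75 and fell for 590 to 687, and total mRNA rose for 43 to 100 and fell for 20 to 115. Against the other strains the ranges were 91 to 113 events higher and 0 to 3 lower, and 1 to 146 genes higher and 1 to 174 lower. The median ratio was 0.98 to 1.08. The lone array is then assumed to vary like the other strains. Of 127 named results past the test, 72 lost the call under at least 1 alternative, and none of the 127 turned its direction in the alternatives run. Those picked for 1 sign on both arrays could not turn against 0 when an array was left out. Named results not past the test could turn, as total mRNA of mam3 read -0.70 on replicate 1 and 0.78 on replicate 2.

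The replicate numbers are shared by 8 strains, and deviations from the strain means correlated over 0.1 in 26 of 28 pairs of strains for total mRNA and in 27 for the ratio, so most but not every pair did, and the numbers were not taken to pair the arrays. Between smd3 and the 7 other such strains the correlation was 0.116 to 0.703 for total mRNA, highest with pwi1. With the replicate number as a block, 1189 events rose and 6 fell in ratio, 18 introns fell, 156 junctions rose and 1200 fell, and 285 genes rose and 250 fell in total mRNA. Against the other strains 82 genes were higher and 76 lower in that fit. It ended the call of no named result and added 6.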
